A study of Mus musculus with 2 samples.

Results

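Chromatin accessibility was examined at the promoters of the genes that encode the proteasome and the factors that assemble and regulate it. Members were the protein-coding genes of chromosomes 1 to 19 whose names combine Psm, a letter from a to g and a number. Psmb8 and Psmb9, which lie among the class II histocompatibility genes, were left out. This gave 45 of 21281 protein-coding genes. The cells were splenic B cells of mock-treated C57/Bl6 mice of genotype Trp53+/+, aged 8 weeks, enriched on magnetic beads against B220, and the series holds 1 DNaseI library and 1 input library of the same cells. Apoptotic cells were removed before the digestion, and the number of animals behind the library is not given. Only the DNaseI library has a list of peaks, which are called DNase I hypersensitive sites (DHS) below. DNase I cuts DNA that is not wrapped in nucleosomes, so a DHS marks DNA that was open in at least part of the cells.

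The proteasome degrades proteins tagged with ubiquitin. Its core particle is a barrel of alpha rings, which gate the entrance, and beta rings, which carry the peptidase sites. A cap on the barrel end recognises the tagged protein, removes the ubiquitin and, with a ring of ATPases, unfolds the chain and feeds it in. Other activators can take the place of the cap, and dedicated chaperones build the particles. Lymphocytes also make beta subunits that are induced by interferon and that favour peptides for antigen presentation, while a few subunits are made in a single tissue such as testis or thymic epithelium.

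A gene was scored by the peaks that overlapped the 2 kb centred on any of its annotated transcription start sites (TSSs), that is 1 kb on each side, and its score was the highest score among them. The scale of the score, a value that the peak caller gave each peak, is not stated, so scores and their sums are given as listed and compared only with other scores of the same list. There was 1 library and no replicate, so no test was made. The depth is unknown, and a promoter without a DHS is one at which none was called. All positions are on mm9.

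The labelled cell type was checked first. The B cell markers Cd79a, Cd79b, Ms4a1, Pax5, Ptprc, Blk and Cr2 each had a promoter DHS. Of the 5 T cell markers Cd3e, Cd3g, Cd4 and Cd8a had none and Cd5 had at least one, with a highest score of 97.7. Csf1r, Lyz2 and Mpo of the 4 myeloid markers and both natural killer markers, Ncr1 and Klrb1c, had none, while Itgam had one with a score of 18.2. Klf1, an erythroid marker, had one with a score of 178. The part of other cells in the proteasome values was not tested.

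Of the 45 proteasome genes 43 had a promoter DHS, against 54.6% of all protein-coding genes of the same chromosomes. The 2 without one were Psma8 and Psmb11, both of which belong to the 3 genes of restricted expression. Every gene of the alpha ring (7 of 7), the beta ring (7 of 7), the cap ATPases (6 of 6) and the other cap subunits (11 of 11) had one. So did all 5 genes for activators and their inhibitor and all 6 genes for assembly factors.

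**Figure D1:**
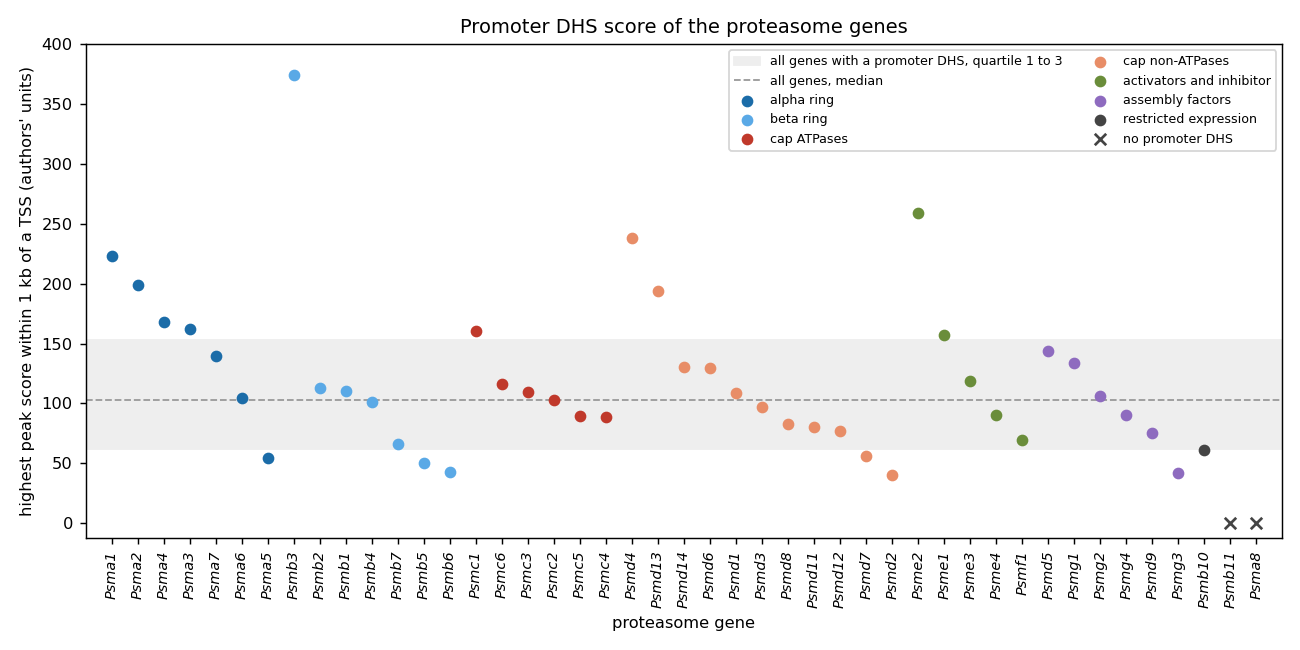
Highest peak score within 1 kb of a TSS (vertical axis, in the units of the authors) for each of the 45 proteasome genes (horizontal axis), coloured by role, with crosses at the bottom for the 2 genes without a DHS, which have no score. The grey band runs from the lower to the upper quartile of all protein-coding genes with a promoter DHS (61.9 to 153) and the dashed line marks their median of 103. The points spread on both sides of that line, from 40.2 for Psmd2 to 374 for Psmb3.

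A promoter DHS was present in a larger share of these genes than of all genes, while their scores lay near those of all genes. The median score of the 43 genes was 106, against 103 for the 11621 protein-coding genes with a promoter DHS and 114 for those with a CpG-rich promoter. Of the 43, 24 lay above the median of all genes, 10 above their upper quartile and 7 below their lower quartile. For comparison, 74 of 78 cytoplasmic ribosomal protein genes had a DHS with a median score of 141, and all 20 aminoacyl-tRNA synthetase genes had one with a median of 119.6. None of these differences was tested.

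**Figure D2:**
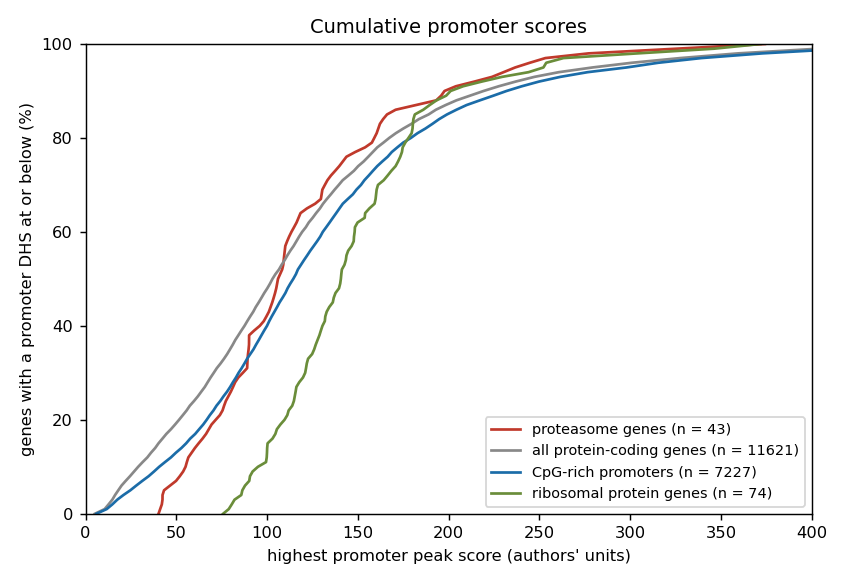
Share of genes at or below a given promoter score (vertical axis, in percent of genes with a promoter DHS) against the score (horizontal axis, in the units of the authors), for proteasome genes, all protein-coding genes, genes with CpG-rich promoters and ribosomal protein genes. The curve of the proteasome genes crosses that of all genes near the middle, with medians of 106 and 103, and starts later, since no proteasome gene scored below 40.2. The median of the ribosomal protein genes is higher, at 141.

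The core particle came first in the comparison of roles. In the alpha ring, whose subunits form the gate, the median score was 162 and 6 of 7 genes lay above the median of all genes. Psma1 (chromosome 7, 121408120 to 121419632) was highest, with a score of 223 at percentile 90.4 of all genes with a promoter DHS. Psma2 followed with 199, Psma4 with 168 and Psma3 with 162. Psma7 scored 139 and Psma6 scored 105. Psma5 was lowest with 54.7, at percentile 21.5, and its 2 DHS summed to 87.9.

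In the beta ring the median score was 101, with 3 of 7 genes above the median of all genes. Psmb3, a structural subunit, had the highest score of all proteasome genes, 374 at percentile 98.3. Its DHS (chr11:97561172-97565201) was also the widest, at 4030 bp, and covered a TSS window of Pcgf2, a Polycomb gene. Psmb2 scored 113, Psmb1 scored 110.1 and Psmb4 scored 101. Summed over their DHS, Psmb1 reached 191 and lay above Psmb2 at 156. The 3 genes for the peptidase subunits of the ordinary particle were the 3 lowest of the ring. These were Psmb7 (trypsin-like activity) with 65.9, Psmb5 (chymotrypsin-like activity, the main target of proteasome inhibitor drugs) with 50.3, and Psmb6 (caspase-like activity) with 42.45. With Psmb10, which replaces Psmb7 in the particle of immune cells and scored 60.8, these 4 peptidase genes fell between percentiles 16.1 and 27.1. Psmb11, which had no DHS and so no score, and Psmb8 and Psmb9, which were left out of the members, are not among the 4. The scores of the 4 structural genes of the ring began at 101. When the scores of all DHS in a window were added, the 4 peptidase genes reached 50.3 to 68.2 and the structural genes still began at 101. The division into peptidase and structural genes was made after the scores were seen and was not tested.

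Among the cap genes, the 6 ATPases, which form the ring that unfolds substrates, ranged from 89.0 for Psmc4 to 160.3 for Psmc1, with a median of 106. Between them lay Psmc6 with 116, Psmc3 with 109, Psmc2 with 103 and Psmc5 with 89.3. When the scores of all DHS in a window were added, Psmc4 rose to 158 and Psmc2 to 169, so that Psmc5 became the lowest and Psmc2 the highest ATPase. The 11 other cap subunits had a median of 97.4 and a range from 40.2 to 238. Psmd4, a ubiquitin receptor, was highest with 238 at percentile 92.1. Psmd14, the enzyme that cuts off the ubiquitin chain, scored 130.5, while Psmd7, its inactive partner, scored 56.5. The scaffold subunits differed, with Psmd1 at 109 and Psmd2 (chromosome 16, 20651725 to 20663487) at 40.2, the lowest score of all members. The 6 horseshoe-shaped lid subunits that share a domain named PCI ranged from 77.0 for Psmd12 to 194 for Psmd13, with Psmd6 at 129, Psmd3 at 97.4, Psmd8 at 83.1 and Psmd11 at 80.3. The 2 DHS of Psmd8 summed to 132, which placed it above Psmd6. Taking rings and cap as wholes, the median was 111 over the 14 core genes and 103 over the 17 cap genes, and the ranges overlapped (42.45 to 374 and 40.2 to 238).

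Among the activators, Psme2 and Psme1, neighbours on chromosome 14 that encode the 2 chains of the activator induced by interferon, had the highest scores. Psme2 scored 259 at percentile 93.8 and Psme1 scored 157 at percentile 76.6. Psme3, the nuclear relative of these chains, scored 119. Psme4, an activator linked to histone degradation, scored 90.04, and Psmf1, an inhibitor that binds the core, scored 69.5. The 2 DHS of Psme4 summed to 142, which placed it above Psme3. Of the assembly factors, which leave the finished particle, the cap chaperones Psmd5 and Psmd9 scored 144 and 74.98. The core chaperones scored 134 (Psmg1), 106 (Psmg2), 90.1 (Psmg4) and 42.4 (Psmg3).

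The genes of restricted expression differed among themselves. Psmb10 (chromosome 8, 108459628 to 108462292), the immune subunit, had a DHS of 1988 bp that reached from 247 bp upstream to 1740 bp downstream of the TSS. Psmb11 (chromosome 14, 55244147 to 55248393), the subunit of the thymic epithelium, had none, and the nearest DHS, 6.5 kb upstream, was the promoter DHS of Psmb5. Psma8 (chromosome 18, 14864660 to 14920808), the subunit of the testis, had none either, and its nearest DHS lay 22.3 kb upstream with a score of 198. Both remained without a DHS in a window from 5 kb upstream to 2 kb downstream. With 3 genes in this group, its count of 1 is a description of these genes.

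The position of the DHS was measured from a reference TSS, the start of the transcript with the longest coding sequence. That TSS lay inside a DHS in 40 of 45 genes, against 41.7% of all genes and 67.7% of those with a CpG-rich promoter. The 5 exceptions were Psma8 and Psmb11, together with Psma2, Psmb2 and Psmf1. At Psma2 the DHS began 3 bp downstream of the TSS. At Psmb2 the TSS fell in a gap between DHS. At Psmf1 (chromosome 2, 151541548 to 151569922, minus strand) the reference TSS at 151569922 was bare and the DHS (chr2:151566299-151567619) covered the TSSs at 151567029 and 151567046 of other transcripts. Counting any annotated TSS, 42 genes had one inside a DHS. The share of all genes was not computed for this count, which favours genes with many annotated TSSs.

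**Figure D3:**
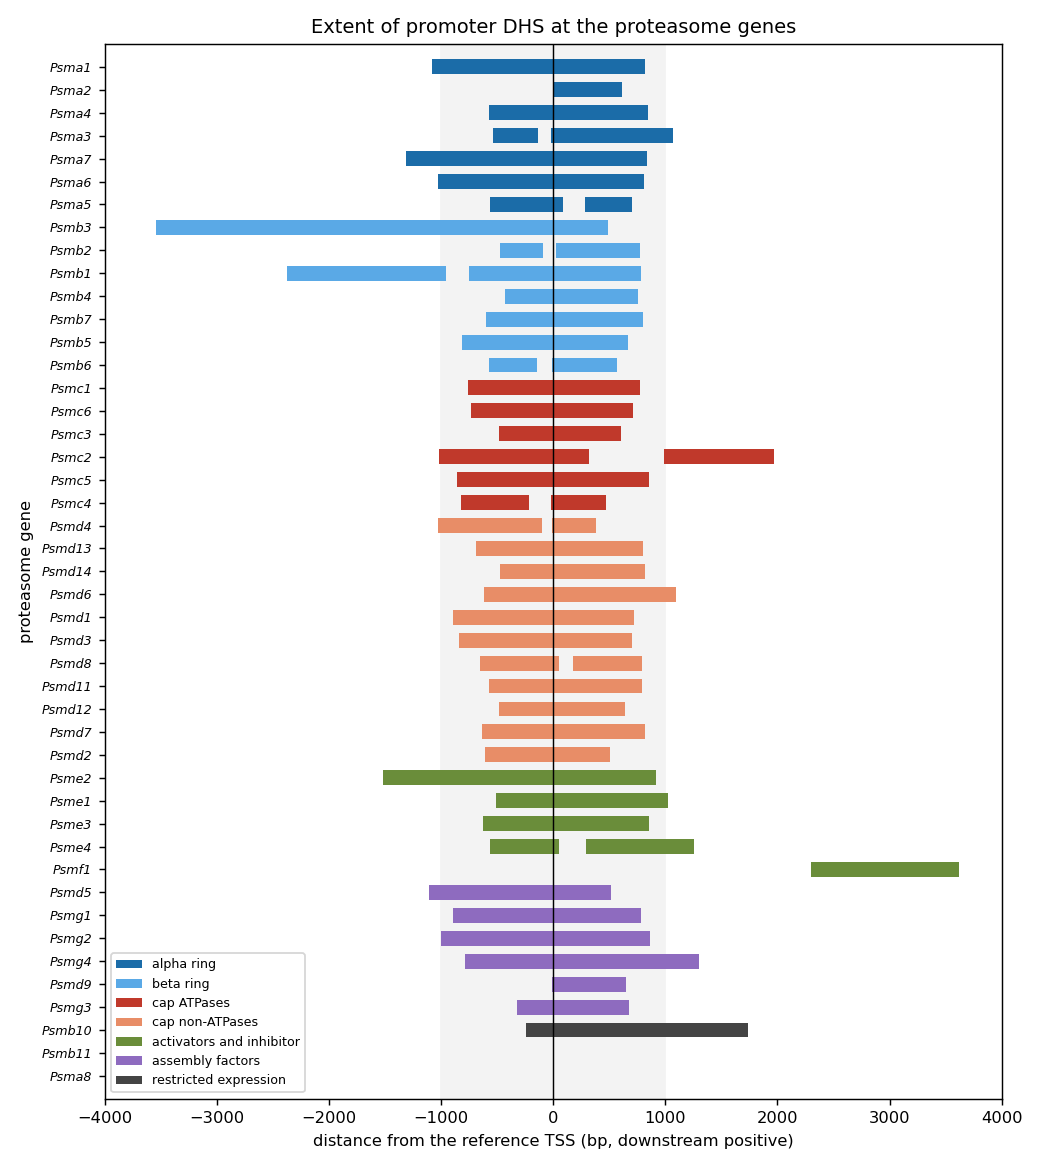
Extent of each promoter DHS (bars, coloured by role) along the distance from the reference TSS in bp (horizontal axis, downstream positive) for the 45 proteasome genes (vertical axis). The shaded band is 1 kb on each side. Most bars lie across the TSS, 8 genes show a gap near it, Psmb3 has the longest bar at 4030 bp, the bar of Psmf1 lies downstream of its reference TSS, and Psmb11 and Psma8 have no bar.

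Most of these DHS sat across the start of the gene. The highest-scoring DHS of a gene had a median width of 1446 bp, against 1371 bp over all genes with a promoter DHS. It reached a median of 615 bp upstream and 779 bp downstream of the reference TSS (678 and 762 bp over all genes with a promoter DHS). The median distance of its centre from the TSS was 174 bp, against 302 bp. The centre was downstream in 25 genes and upstream in 18 (58.1% downstream, against 56.4% over all genes). Score and width rose together across the 43 genes with a Spearman rho of 0.362, against 0.520 across all genes with a DHS. Genes are not independent replicates and both measures come from the same caller.

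In 10 genes the window held 2 DHS (20.3% of all genes held at least 2, and 34.9% of those with CpG-rich promoters). In 8 of them a gap of at most 300 bp lay within 300 bp of the reference TSS, a rule chosen after the map had been seen. Such a gap was present in 8.91% of all genes, in 17.0% of those with CpG-rich promoters and in 16.3% of genes with a promoter DHS, so the count of 8 in 43 is near that background. The gaps measured 82 bp at Psmd4, 115 bp at Psma3, 119 bp at Psmb2, 126 bp at Psmd8, 136 bp at Psmb6, 194 bp at Psma5, 199 bp at Psmc4 and 241 bp at Psme4. The GC content of the gap was above that of the DHS on either side in 7 of the 8, with medians of 61.6 and 52.4%, and the exception was Psma3. The same held at 84.8% of the 1902 gaps of all genes. The remaining genes with 2 DHS were Psmb1, whose DHS were both shared with Tbp, and Psmc2, whose second DHS began 991 bp downstream.

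A DHS can serve more than one gene, which limits what its score says about either. At 10 proteasome genes a DHS was shared with the promoter window of another protein-coding gene. This held for 12.8% of all genes and for 23.4% of genes with a promoter DHS, so the 10 of 43 are near that background. Psma7 shared it with Ss18l1, Psmc2 with Dnajc2, Psmc5 with Ftsj3, Psmd13 with Sirt3, Psma2 with Mrpl32, Psmg2 with Cep76 and Psme2 with Rnf31. In these 7 the partner started on the other strand 32 to 621 bp upstream, an arrangement within 1 kb that 7 of 45 members and 1915 of all 21281 genes had (15.6 and 9.0%). Psmb1 shared its DHS with Tbp, Psmb3 with Pcgf2 and Psma4 with AY074887. The 7 genes with an upstream partner had a median score of 139, against 103 for the other 36 with a DHS. Over all genes with a DHS the corresponding medians were 126 and 97.8.

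Beyond the promoter windows, 27 DHS lay in the bodies of 16 proteasome genes or within 10 kb upstream of them, and 6 of the 27 were at the TSS of another protein-coding gene. The share of genes with such a DHS was 35.6%, against 42.8% of all genes, while the median gene length was 12564 bp, against 15624 bp. The highest score among these 27, 239, belonged to a DHS upstream of Psma3 (chr12:72068634-72070307), and exceeded the 162 of the Psma3 promoter itself. Psmd1 had 6 of the 27, more than any other member.

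CpG content was then compared, since CpG-rich promoters are open in most cells. The term CpG-rich was kept for promoters whose surrounding 1000 bp reached 55% GC and a CpG ratio, the observed number of CpGs over the number expected from base composition, of 0.6 or more. This held for 25 of 45 proteasome genes, against 40.2% of all genes. All 25 had a DHS (84.5% of all CpG-rich promoters). Of the 20 others 18 had one, against 34.5% of all promoters below the threshold. With a GC threshold of 50% the count of CpG-rich promoters rose from 25 to 37, and the share over all genes from 40.2 to 45.7%. With 500 bp in place of 1000 bp around the TSS the count was 38 and the share over all genes 46.6%.

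**Figure D4:**
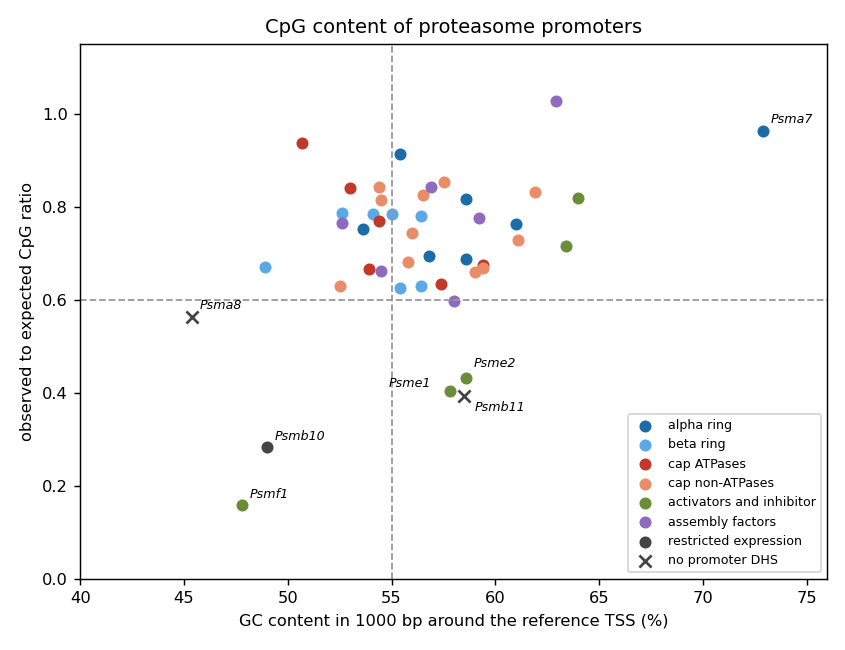
Observed to expected CpG ratio (vertical axis) against GC content in percent (horizontal axis) in 1000 bp around the reference TSS of each proteasome gene, coloured by role, with dashed lines at the thresholds of 55% and 0.6 and crosses for the 2 genes without a promoter DHS. Psmf1, Psmb10, Psmb11, Psme1, Psme2, Psma8 and, narrowly, Psmg4 lie below a ratio of 0.6 and the other genes above it.

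The 6 genes with the lowest CpG ratios were the inhibitor, the interferon-induced activator chains and the 3 genes of restricted expression. Psmf1 had a ratio of 0.159 at its reference TSS, Psmb10 0.283, Psmb11 0.392, Psme1 0.404, Psme2 0.431 and Psma8 0.564. Of these 6, Psme1 and Psme2 combined low CpG ratios with scores above the upper quartile of all genes, whereas Psmb11 at a similar ratio and a GC content of 58.5% had no DHS. Across the 43 genes with a DHS the score had a Spearman rho of -0.0563 with the CpG ratio and 0.275 with GC content, against 0.295 and 0.142 across all genes with a DHS, again with genes as points that are not independent.

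Sequence words were searched on both strands from 250 bp upstream to 50 bp downstream of the reference TSS, 9 words in all. A match describes the letters and not the binding of a factor. The word of Ets factors, CCGGAAG, was in 16 of 45 promoters, against 11.1% of all genes and 18.1% of CpG-rich promoters. It was in 10 of 17 cap genes (4 of 6 ATPases and 6 of 11 others) and in 1 of 14 core genes, Psma6. CpG-rich promoters numbered 10 among the core and 10 among the cap genes. Within those CpG-rich promoters the counts were 1 and 6. The difference between core and cap genes was not tested. In all, 16 of the 18 matches of the Ets word lay in a DHS, and the other 2 were at Psma8, which has none. This was not particular to the Ets word, as 48 of 53 matches of GGGCGG and 20 of 25 of CCAAT also lay in one. For TGACNNNGC it was 4 of 7. Stretches of cap promoters around the Ets word are shown because its counts over all cap and all core genes differed most among the 9 words. That choice was made after the counts were seen. The word is in capitals, read 5′ to 3′ on the plus strand, which is the strand of these genes. Those of Psmc2 and Psmd11 lie in exons, the first of the opposite gene Dnajc2 and the second of another Psmd11 transcript.
Psmc2 (chr5:21290999-21291025): ccagtgagcaCTTCCGGgatggggctc
Psmc3 (chr2:90894109-90894135): cctcccgcctCTTCCGGttgtgcagca
Psmc6 (chr14:45949389-45949415): ggcgggccagCCGGAAGgggcggagcc
Psmd2 (chr16:20651689-20651715): ccgcagggcgCTTCCGGtctggaggac
Psmd11 (chr11:80242096-80242122): gagggcgggtCTTCCGGgtgtgtgttt
In Psmc6 the word read along the gene, and in the other 4 it was on the opposite strand. The scores behind these 5 promoters ran from 40.2 for Psmd2 to 116 for Psmc6. The median score was 105 with the word and 107 without it over all members with a DHS.

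Psmc1 is shown at greater length, as a single promoter with an uninterrupted DHS centred 3 bp from its TSS. Capitals mark a CCAAT box and the Ets word on chr12:101348226-101348395, plus strand, from 170 to 1 bp upstream.
Psmc1: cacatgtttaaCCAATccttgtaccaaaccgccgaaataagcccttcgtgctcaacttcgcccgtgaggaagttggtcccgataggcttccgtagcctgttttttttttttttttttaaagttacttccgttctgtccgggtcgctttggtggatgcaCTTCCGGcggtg
Psmb11 is shown for contrast, as a promoter without a DHS that also holds a CCAAT box, in capitals, on chr14:55243977-55244146, plus strand, over the same distance.
Psmb11: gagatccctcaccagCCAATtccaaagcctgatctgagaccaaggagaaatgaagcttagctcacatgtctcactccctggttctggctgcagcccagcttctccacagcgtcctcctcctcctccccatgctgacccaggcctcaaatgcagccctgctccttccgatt
CCAAT boxes, the site of the factor NF-Y, were in 16 of 45 promoters and in 37.4% of all genes, a share near the background. They were in 8 of 14 core and 6 of 17 cap genes. The median score was 139 with the box and 89.7 without it, a difference that was not tested.

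**Figure D5:**
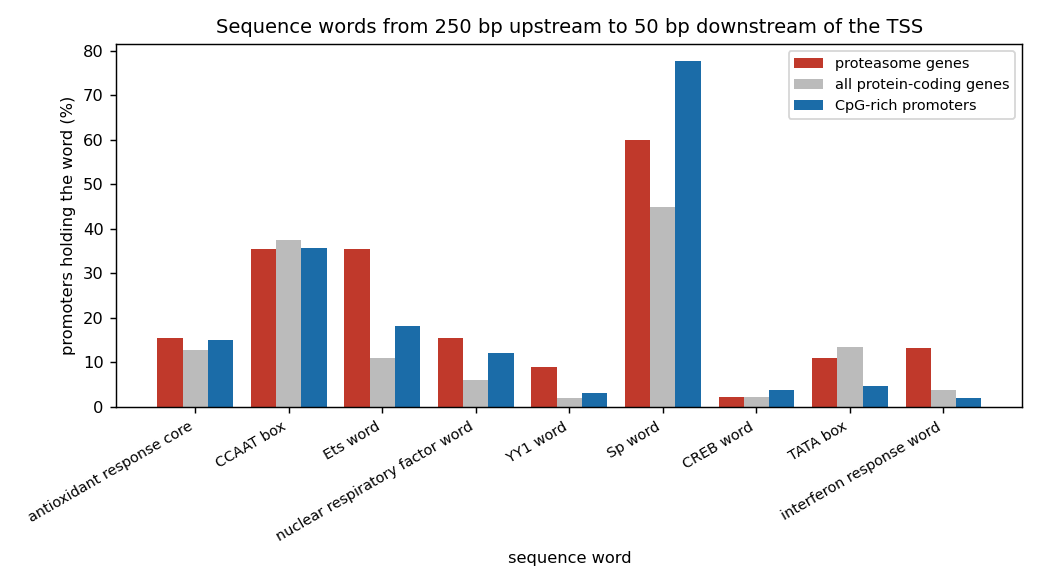
Percent of promoters that hold each of the 9 sequence words (vertical axis) in the 45 proteasome genes, in all 21281 protein-coding genes and in the 8548 CpG-rich promoters (bars), by word (horizontal axis). The Ets word stands at 35.6% in proteasome genes against 11.1 and 18.1%, while the CCAAT box and the antioxidant response core are close to both backgrounds.

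The core of the antioxidant response element, TGACNNNGC, is the site of Nfe2l1 and Nfe2l2, factors that raise proteasome gene expression when the proteasome is inhibited or cells are stressed. It was in 7 of 45 promoters (Psmb2, Psmb5, Psmb6, Psmc6, Psmd7, Psmd9 and Psmd12), against 12.8% of all genes and 15.0% of CpG-rich promoters. That is near the background in this window, but from 500 bp upstream to 100 bp downstream it was in 16 of 45, against 22.1% of all genes. Words at 3 beta genes are shown in capitals, since they begin within 50 bp of the TSS and fall on either side of a DHS edge.
Psmb5 (chr14:55236861-55236889, minus strand, antioxidant response core): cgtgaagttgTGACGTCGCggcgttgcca
Psmb6 (chr11:70338840-70338868, plus strand, antioxidant response core): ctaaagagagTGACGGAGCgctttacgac
Psmb2 (chr4:126354784-126354873, plus strand, CREB word TGACGTCA): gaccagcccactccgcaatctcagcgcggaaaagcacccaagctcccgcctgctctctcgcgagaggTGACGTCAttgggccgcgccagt
At Psmb5 the word was inside the DHS. At Psmb6 and Psmb2 the words were in the gap between both DHS, as were a further antioxidant response core and a CCAAT box of Psmb2. The CREB word shares its last base with that CCAAT box, which reads on the opposite strand. It occurred in no other member and in 2.33% of all genes.

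The word of nuclear respiratory factor, a regulator of many genes for mitochondrial proteins, was in 7 of 45 promoters, against 6.14% of all genes and 12.2% of CpG-rich promoters. At Psma4, Psmc5, Psmd14 and Psmg1 it lay inside the DHS, and 5 of its 9 matches did so. At Psma3 and Psmc4 it was in the gap, and at Psma2 it was upstream of the edge at which the DHS began. The Psma2 and Psmg1 sites read the same on both strands and were counted on each, so the 9 matches were at 7 sites. The sites of Psma3, Psma2 and Psmc4, which lay outside a DHS, are shown with the words in capitals, each on the strand of its gene. A link between the word and the ends of the DHS was not tested.
Psma3 (chr12:72075522-72075551, plus strand): tatggtttctGCGCACGCGCgctctctgct
Psma2 (chr13:14705372-14705401, plus strand): ggcccctcttGCGCATGCGCaagggtcaaa
Psmc4 (chr7:28835261-28835290, minus strand): aagagttactGCGCACGCGCaacatccttg
The part of GC content, given above for gaps and flanks, in the calling of these gaps was not tested.

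The other words were as follows. The Sp word GGGCGG was in 27 promoters (60%, against 44.96% of all genes and 77.6% of CpG-rich promoters). It was in 13 of 17 cap and 7 of 14 core genes. Among CpG-rich promoters it was in 9 of 10 cap and 4 of 10 core genes, where the Ets word was in 6 and 1. The YY1 word AAGATGGCG was in 4, Psmb6, Psmc5, Psmd7 and Psmd11 (1.94% of all genes and 3.24% of CpG-rich promoters). TATAAA was in 5 (13.6% of all genes and 4.67% of CpG-rich promoters). The interferon response word was in 6 promoters, those of Psma4, Psmb3, Psmd4, Psmd7, Psmd9 and Psmg4, against 3.82% of all genes and 2.09% of CpG-rich promoters. In the longer window it was in 7, against 7.66% of all genes. It was not matched in this window at Psme1, Psme2 or Psmb10, the interferon-induced members.

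The genes that act beside the proteasome were described last. Of 26 such genes 25 were found under the name used, and all 25 had a promoter DHS, with a median score of 129.6 and a range from 34.0 for Nploc4, an adaptor of the Vcp unfoldase, to 376 for Ubqln4, a shuttle for ubiquitinated proteins. Among cap partners the ubiquitin receptor Adrm1 scored 87.0, the small cap subunit Shfm1 scored 105, and the deubiquitinases Uchl5 and Usp14 scored 149 and 129.6. Pomp, the core assembly factor, scored 64.8, between the peptidase gene Psmb7 and the immune subunit Psmb10. Nfe2l1 had 5 DHS in its window with a highest score of 170.1, and Nfe2l2 had 1 with a score of 308. Ddi2 and Ngly1, which process Nfe2l1 into its active form, scored 93.9 and 166. Of the ubiquitin genes Ubb scored 131 and Rps27a scored 126.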

How the data were processed

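DNA from nuclei digested with DNase I was sequenced in 1 library, with 1 input library. The deposited file lists 47542 peaks with a score in its last column, made by the authors, and its peak names carry the prefix of the caller MACS. The version and settings for this library are not given in the sources used here, and neither is the scale of the score (5.05 to 619). The submitters' processing notes name BWA 0.6.2, SAMtools and mm9. No reads or counts were used, so the depth is unknown. The input library was not used further here.

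Peaks were laid over GENCODE M1 on NCBI build 37, the assembly of mm9, with at least 1 bp of overlap. Gene records with the same name on a chromosome were joined, which affected 1 member, Psmd14. Sequences were read from the same assembly. Overlap and word searches were tested on simulated data. Python 3.11.15, numpy 2.4.6, pandas 2.3.3 and scipy 1.17.1 were used. Every member was to be named with its score or as having no peak, with the highest and lowest of each role and the members with more than 1 peak. Members, lists, words and roles were chosen with earlier results of these data known. With 1 library no test was made, and values are set beside those of all 21281 protein-coding genes of chromosomes 1 to 19. Alternatives concerned the window, the TSS, the peak threshold, the overlap, merged peaks, summed scores, CpG thresholds and the word window. Some marker and partner genes and a promoter sequence are not reported here.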

Additional observations from a re-analysis of the deposited data

How the results depend on the processing

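The count of 43 genes with a promoter DHS stayed within 41 to 43 under 7 other settings. It was 43 in a window from 5 kb upstream to 2 kb downstream (58.1% of all genes) and in one of 250 bp on each side (52.5%). It was also 43 with peaks at or above the median score (32.65) only (48.4%) and with peaks less than 500 bp apart merged (54.6%). The wider window and the merging could not lower the count, and neither could the score threshold, since no member with a DHS scored below 40.2. The count was 42 with the reference TSS only (51.8% of all genes), where Psmf1 was lost. It was 42 when the peak centre had to lie in the window (53.4%), where Psmb3 was lost. With the 5′ end of the gene record it was 41 (52.0%), where Psmf1 and Psma6 were lost. Psma8 and Psmb11 had no DHS in any of these settings. The median score of 106 ranged from 105 to 119 over 6 settings. The 95% binomial interval of the median over genes was 89.3 to 129. That interval treats genes as independent, which they are not, and holds no replicate error, so it does not measure how stable the median is. The highest median was that of summed scores, where the median of all genes was 120.2 and thus above that of the members. Summing also raised 7 of 43 member scores by over 1.5 times, Psmc4 from 89.0 to 158, Psmb1 from 110.1 to 191, Psmc2 from 103 to 169, Psma5 from 54.7 to 87.9, Psmb6 from 42.45 to 68.2, Psmd8 from 83.1 to 132 and Psme4 from 90.04 to 142. The TSS lay inside a DHS in 37 genes by the 5′ end of the gene record (41.4% of all genes). The number of CpG-rich promoters was 37 with a GC threshold of 50% (45.7% of all genes) and rose from 25 to 38 with 500 bp in place of 1000 bp around the TSS, where the share over all genes was 46.6%. In the longer word window, from 500 bp upstream to 100 bp downstream, the antioxidant response core was in 16 genes (22.1% of all genes), the CCAAT box in 26 (56.8%) and TATAAA in 8 (26.0%), as a longer window holds more matches by construction. The Ets word was in 19 (14.1% of all genes), of which 11 were cap and 2 core genes, against 10 and 1 in the shorter window. The CCAAT box went from 6 to 10 of 17 cap genes and from 8 to 11 of 14 core genes. The interferon response word went from 6 to 7 of the members. Depth is unknown, which limits every absent DHS. No paired analysis was possible because there is 1 DNaseI library.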

Other observations

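Psmd10, a cap chaperone whose name fits the same pattern, lies on chromosome X and was therefore outside the comparisons. Its promoter window held 2 DHS, with scores of 51.4 and 26.6, the higher at percentile 19.9 of the genes of chromosomes 1 to 19 with a promoter DHS. The reference TSS, at 137491228, lay inside the lower-scoring DHS.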
